A study of Mus musculus with 12 samples.

Results

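The array used in this study carries unnamed probes for stretches of the mouse genome from which long noncoding RNA may be made, and the RNA read by those probes is described here. A region is an interval of the genome with a strand, as the array files give it, and a member is a probe of 60 bases for such a region whose signal passed the scanner software's flag for being well above background on each of the 3 arrays in at least 1 of the 4 groups. This rule kept 5573 of 16251 region probes, which lie in 2588 of 4622 regions and 2110 of 3555 intervals. It used whether a signal was seen, and no difference between groups. Of the remaining region probes 10676 were tested by the same flag and did not pass, and 2 were lost to outlier flags.

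All RNA came from RAW264.7, an established mouse macrophage line, so every group shares that background. NS cells had no NaCl added, HS cells had 40 mM NaCl added, NS + LPS cells had 10 ng/ml lipopolysaccharide (LPS, the bacterial surface glycolipid that TLR4 recognises), and HS + LPS cells had both, for 24 h and with 3 arrays a group. The title of the study gives high salt as the reading of HS, and NS was taken as its counterpart, since the abbreviations are not spelled out. Whether the 3 samples of a group were separate cultures is not stated, so a p-value here reflects only how far these samples spread, and that spread may be technical. In RNA from whole cultures, fewer cells that make a transcript and less of it in each cell cannot be told apart.

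Long noncoding RNAs are transcripts without a translated reading frame that are often spliced and polyadenylated like messenger RNA. Some stay in the nucleus and hold bodies such as speckles or paraspeckles together, some act near the site where they are made, and others host small RNAs in their introns. Macrophages are known to switch on many such transcripts beside inflammatory genes when they sense LPS, and strand matters because a noncoding transcript can run against a coding gene at the same place.

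The probes on which the results below turn are printed 5′ to 3′ as the array files give them, with their place on mm9, the build of the files, and the strand named by the design. Capitals mark a match to ATTTA, the core of AU-rich elements. The first 5 were higher with added salt, and the sixth is the opposite strand of the second.
D430036J16Rik region, probe at chr9:81537919-81537978, forward: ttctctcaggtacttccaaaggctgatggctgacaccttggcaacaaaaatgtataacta
2210408F21Rik side, probe at chr6:31288141-31288200, forward: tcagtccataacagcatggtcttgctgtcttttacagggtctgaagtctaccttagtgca
Slco4a1 side, probe at chr2:180161584-180161643, reverse: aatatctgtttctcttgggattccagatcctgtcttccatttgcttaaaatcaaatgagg
5330426P16Rik side, probe at chr16:50753530-50753589, forward: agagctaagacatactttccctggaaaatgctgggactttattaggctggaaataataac
Malat1 locus, probe at chr19:5802191-5802250, reverse: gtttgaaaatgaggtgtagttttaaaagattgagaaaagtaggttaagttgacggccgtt
2210408F21Rik side, probe at chr6:31285985-31286044, reverse: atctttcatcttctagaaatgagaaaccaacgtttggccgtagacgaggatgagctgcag
A second set was lower with added salt, and the Mirt1 probe holds the ATTTA match.
Ankdd1a side, probe at chr9:65368970-65369029, reverse: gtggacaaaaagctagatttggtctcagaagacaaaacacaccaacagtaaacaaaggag
Mirt1 region, probe at chr19:53534703-53534762, reverse: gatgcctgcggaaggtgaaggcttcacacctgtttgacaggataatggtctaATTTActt
The next set showed the LPS response, the first 3 higher and the last 3 lower with LPS.
A530032D15Rik side, probe at chr1:85038432-85038491, reverse: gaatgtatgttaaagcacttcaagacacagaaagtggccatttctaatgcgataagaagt
A530032D15Rik side, adjoining probe at chr1:85038372-85038431, reverse: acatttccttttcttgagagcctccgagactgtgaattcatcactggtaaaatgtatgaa
C130026I21Rik side, probe at chr1:85305069-85305128, reverse: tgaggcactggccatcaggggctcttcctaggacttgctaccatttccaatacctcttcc
Ywhaz side, probe at chr15:36800361-36800420, reverse: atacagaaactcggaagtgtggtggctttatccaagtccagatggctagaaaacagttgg
Pdk3 side, probe at chrX:91000789-91000848, reverse: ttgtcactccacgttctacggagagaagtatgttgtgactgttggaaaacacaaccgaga
Morrbid side, probe at chr2:128212225-128212284, reverse: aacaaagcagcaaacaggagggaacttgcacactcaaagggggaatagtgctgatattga
In the last set the effect of salt depended on LPS.
Gpr157 side, probe at chr4:149445831-149445890, forward: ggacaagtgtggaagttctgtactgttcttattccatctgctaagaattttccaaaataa
Nfil3 side, probe at chr13:53113644-53113703, reverse: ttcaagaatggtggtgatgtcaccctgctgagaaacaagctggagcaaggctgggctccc

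Probes were searched for AATAAA, the hexamer that precedes polyadenylation sites, and for ATTTA, on both strands. AATAAA stood on the printed strand of 3.64% of members, 3.92% of all region probes and 12.6% of the other probes of the array, and on the other strand of 2.53%, 3.03% and 4.03%. ATTTA stood on the printed strand of 5.37% of members, 6.98% of region probes and 8.01% of other probes, and on the other strand of 6.41%, 7.54% and 10.5%. Median GC was 45% in members and 43.3% in region probes that did not pass. The 2 motifs can overlap in one probe, and a match describes letters only.

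The members were spread over 20 chromosomes, with 1292 regions on the forward and 1296 on the reverse strand, and their intervals were 90 to 533972 bases long (median 11752). A single member probe stood for 1200 regions, and 1388 regions had more, up to 10 in 11 regions. Both strands had a member in 478 intervals and one strand in 1632, where the array has probes for both strands of 1067 intervals. Fewer region probes than other probes passed, 34.3% against 54.4% of 39430. Of the members, 3556 were well above background on all 12 arrays and 633 in 1 group only. All 3 arrays of NS were above background for 5328 members and those of HS for 4678, against 4448 for NS + LPS and 3836 for HS + LPS. A member that passed in 1 group only had to differ from the others, so counts over members are set beside those over all probes and over the 3556. Just outside the rule were 789 probes flagged on 2 of 3 arrays of their best group. With the 75th percentile of an array set to 100, the scale of all levels in the text, their highest group mean had a median of 6.01, and that of members had a median of 20.8 and a 10th percentile of 7.87.

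The name long noncoding holds for only a part of the regions as far as named probes show. Among the 33052 named probes with mm9 coordinates, some lay inside and on the same strand of 453 of the 2588 regions. RefSeq classes the gene as lncRNA for 190 of these, protein-coding for 165, pseudogene for 16 and other for 6, and 76 could not be matched. A further 258 regions held a named probe on the opposite strand only, and 1877 held none. Genes of the protein-coding class with a probe inside a region on its own strand included Herc6 and Zfp652, so a region probe there can read the messenger RNA. The class goes by gene name, and whether the gene itself lies at the place of its probe was not checked. Distances from a region to a gene, here and below, run from the edge of the interval to the named probe of the gene. The gene itself can reach closer.

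Some facts of the arrays touch every result. The 75th percentile of the signal was 411 to 438 on the HS + LPS arrays and 613 to 783 on the others, and the HS + LPS arrays lie on a slide and scan day of their own. An effect of being HS + LPS and one of that slide or scan day cannot be told apart. NS + LPS replicate 3 is also the only array here on its slide, and the remaining arrays share 1 slide. Region probes were well above background for 26.7 to 28.6% on HS + LPS arrays, 29.4 to 36.3% on NS + LPS arrays and 36.2 to 37.7% on NS arrays. HS replicate 1 stood apart within its group at 41.5%, beside 31.9 and 32.6%. All 10 macrophage markers were above background in every group, while those of epithelium were so for 0 of 4 genes. Among other cell types the genes above background were Cd3e and Cd4 (of 4 T cell genes), Cd79a (of 3 B cell genes, in NS and HS + LPS), Col1a2 or Dcn (of 4 fibroblast genes, in NS and NS + LPS) and Kdr and Pecam1 (of 3 endothelial genes), and their part in the results was not tested.

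Added salt without LPS raised 712 and lowered 338 of the 5573 members (limma, adjusted p under 0.05), that is 12.8% and 6.07%, where 14.7% of all 27004 probes tested were higher and 13% lower. The median log2 difference was 0.09 over members and 0.04 over all probes. A change of at least 2-fold was seen in 68 higher and 51 lower members, 2.14% beside 2.23% of all probes. Among members above background on all 12 arrays 633 were higher and 260 lower, with 41 and 18 at least 2-fold (1.66%). In a fit of the 22120 probes of any kind with all 12 arrays above background, 4188 were higher and 3425 lower. The 3556 members made up 724 and 288 of these. The share of called members that was higher moved with the scaling, from 712 to 338 into 945 to 337 with normexp background correction, 576 to 415 with cyclic loess, 585 to 459 with quantile normalization and 583 to 460 in the deposited value table. Without HS replicate 1 the count was 553 higher and 345 lower.

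The highest rise among members above background in both groups was in an interval with the noncoding gene D430036J16Rik on the same strand, chr9:81536195-81538236. Its NS levels were 10.3, 9.76 and 9.71 and its HS levels 72.0, 62.0 and 111, so that all HS arrays lay above all NS arrays. The log2 difference was 3.00 ± 0.36 (SE, adjusted p = 0.000254), and all 3 member probes of the region rose, by 3.00 to 3.29. The 3.29 is of a second probe that was well above background on only 1 of 3 NS arrays (5.145, 4.87 and 6.45). In NS + LPS the first probe was above background on 0 of 3 arrays, with levels of 1.34, 1.15 and 3.1, and HS + LPS had 9.62, 5.81 and 9.61. The second probe was at least 8.43-fold lower in HS + LPS than in HS. This bound was taken against the dimmest signals well above background because no HS + LPS array passed there. With normexp background correction, run with an offset of 50, the fitted fold was below the bound for all 16 such bounds computed (2.75 here). The salt difference of the first probe was 2.12 with normexp. An added offset by itself makes folds of dim signals smaller, so these values do not test the bounds. The sizes depend on the processing.

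A locus on chromosome 6 rose next. It spans 4 overlapping forward intervals with 11 member probes, and its nearest named probe, 2210408F21Rik, lies 25970 bases away on the same strand. In chr6:31267612-31293337, NS levels were 10.9, 13.1 and 12.7 and HS levels 83.6, 69.8 and 117, without overlap. The difference was 2.85 ± 0.23 (adjusted p = 2.26e-05), and 9 of the 11 probes rose. With LPS present the same probe read 10.71, 17.3 and 10.6 in NS + LPS and 22.1, 18.03 and 24.9 in HS + LPS, a difference of 0.78 ± 0.23 (adjusted p = 0.018). The named gene itself rose by 3.41 without and 1.64 with LPS. On the reverse strand one probe was not well above background on any NS array and was at least 6.81-fold higher in HS, at levels of 29.4, 19.7 and 34.2.

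The next region rose both without and with LPS. In chr2:180161459-180189542 on the reverse strand, NS read 279.7, 245 and 256 and HS read 1398, 1308 and 1462. With LPS the levels were 348, 304 and 402 without and 2014, 1834 and 1984 with salt, so salt separated the arrays in both settings. The differences were 2.42 ± 0.10 (adjusted p = 1.07e-06) and 2.48 ± 0.10 (adjusted p = 1.82e-07), all 3 probes of the region rose in both, and the interaction was 0.06 ± 0.14 (adjusted p = 0.764). Slco4a1, an organic anion transporter gene whose probe lies 19941 bases away on the opposite strand, rose by 1.94 and 1.84.

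At chr16:50752452-50753589 on the forward strand a probe read 68.4, 57.7 and 90.6 in HS and 122, 108 and 137 in HS + LPS, and it was not well above background on any of the 6 arrays without added salt. All 3 probes of the region rose in both settings. This one was at least 17.9-fold higher with salt alone and at least 23.1-fold higher with salt under LPS, while with normexp the fitted folds were 6.63 and 9.21. Its nearest named probe, 5330426P16Rik, which RefSeq lists as the noncoding gene Dubr, lies 24294 bases away on the opposite strand. That gene did not pass the test with salt alone (0.06 ± 0.07, adjusted p = 0.622) and rose with salt under LPS (1.19 ± 0.07, adjusted p = 1.81e-06).

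A pair of rises rested on uneven HS arrays. The member in chrX:148803114-148851243, forward, with 3010001F23Rik inside, had HS levels of 11.2, 70.4 and 36.8, and the lowest of these, replicate 1, still lay above the NS levels of 6.77, 6.55 and 6.04. Its difference was 2.25 ± 0.50 (adjusted p = 0.00837), 2.98 without HS replicate 1, and the call was lost when only the groups compared were fitted. In chr17:5795893-5835243, reverse, HS read 11.4, 47.5 and 50.8 and NS 6.14, 7.05 and 7.77, a difference of 2.12 ± 0.48 (adjusted p = 0.00863) that became 2.82 without HS replicate 1. There a second probe rose by 1.73 ± 0.18 with salt under LPS (adjusted p = 4.01e-05).

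**Figure D1:**
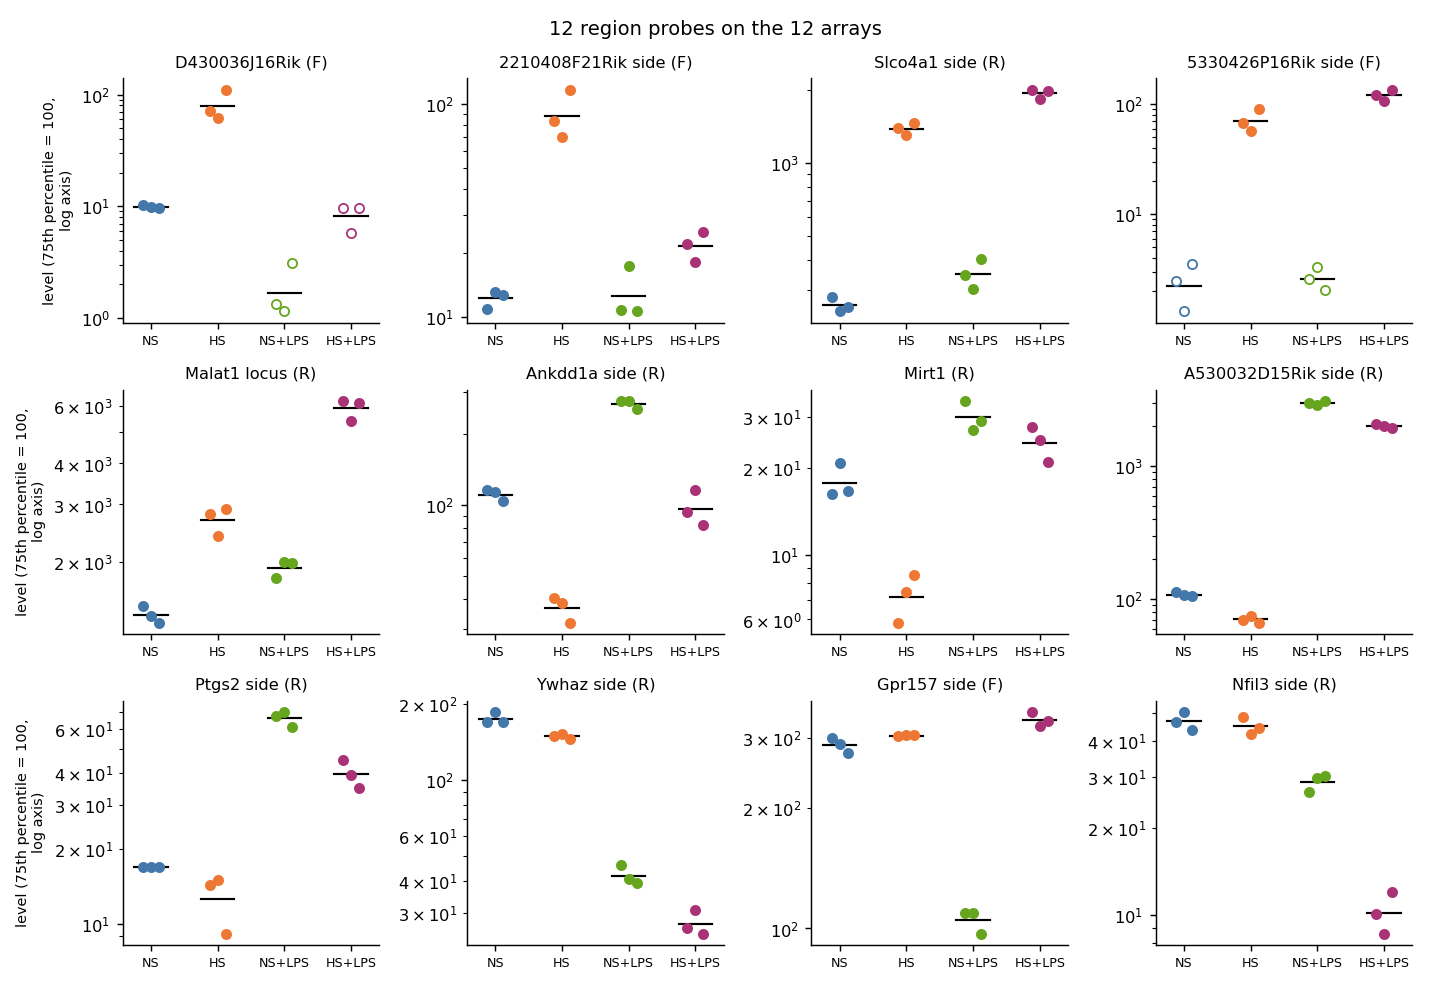
Levels of 12 region probes on each array, on log axes with the 75th percentile of an array as 100, by group; points are arrays, bars are geometric means, and open points belong to groups in which fewer than 3 arrays were well above background. The D430036J16Rik probe reads 62.0 to 111 in HS and 9.71 to 10.3 in NS, and the A530032D15Rik side probe 2903 to 3121 in NS + LPS and 106 to 112 in NS.

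The falls with salt alone included interferon-inducible genes. In chr1:175660642-175671878, reverse, which holds Ifi207 of the p200 family of interferon-inducible DNA sensors, NS read 34.9, 27.5 and 22.2 and HS 9.72, 6.20 and 8.45, without overlap. The difference was -1.79 ± 0.18 (adjusted p = 7.55e-05), and 10 of 11 probes of its locus fell. LPS raised the same probe to 195, 224 and 209.5, a difference of 2.92 ± 0.18 (adjusted p = 3.01e-07). The forward strand of the overlapping interval chr1:175654606-175672031 moved the same way, with differences of -1.17 ± 0.08 with salt (adjusted p = 9.73e-06) and 2.87 ± 0.08 with LPS.

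Salt lowered chr9:65368908-65377592, reverse, both without and with LPS. NS read 116, 113 and 104 and HS 40.4, 38.7 and 31.9, and NS + LPS read 274, 276 and 254 and HS + LPS 93.2, 115 and 82.2. The arrays did not overlap in either setting, the differences were -1.59 ± 0.12 and -1.48 ± 0.12 (adjusted p = 1.81e-05 and 1.1e-05), and the interaction was 0.11 ± 0.17 (adjusted p = 0.669). Of the 8 probes of its locus 6 fell and 1 rose with salt alone. Ankdd1a, whose probe lies 17675 bases away on the same strand, read -0.75 without a call (adjusted p = 0.16) and -1.05 with LPS (adjusted p = 0.036).

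The interval chr19:53517903-53540753, reverse, holds Mirt1, a noncoding gene first linked to the infarcted heart. Its probe read 16.2, 20.8 and 16.6 in NS and 5.85, 7.45 and 8.53 in HS, without overlap. The difference was -1.31 ± 0.16 (adjusted p = 0.000286) and 6 of 7 probes of the region fell, while with LPS the same probe gave -0.29 ± 0.16 (adjusted p = 0.16). Another probe of the region was at least 2.59-fold lower in HS, but its NS levels were 8.96, 29.5 and 8.45. NS replicate 2 carried much of that difference, which went from -1.58 to -0.99 without it, and the call was lost without HS replicate 3 and with the shared slide or the groups compared alone. The forward interval chr10:66383049-66386347 fell with salt (-1.24 ± 0.15, adjusted p = 0.00022), and in chr10:39666719-39679959, reverse, with the pseudogene Mfsd4b3-ps, a probe was at least 2.63-fold lower and all 4 probes fell with salt under LPS as well.

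Added salt with LPS present raised 733 members (13.2%) and lowered 1573 (28.2%), beside 21.3% and 29.3% of all probes tested. At least 2-fold changes came to 102 higher and 383 lower, 8.70% beside 6.6% of all probes, and the median log2 difference was -0.17 in members and -0.07 in all probes. This balance did not hold across scalings. The higher and lower counts were 1281 and 712 with normexp background correction, 1118 and 945 with cyclic loess, 925 and 1152 with quantile normalization and 924 and 1145 in the deposited value table, so the larger direction turned in the first 2. Among members above background on all 12 arrays 636 rose and 870 fell, with 57 and 41 at least 2-fold. In the fit of the 22120 probes of any kind with all 12 arrays above background, 5541 rose and 6543 fell. The 3556 members made up 673 and 942 of these. The lower brightness of the HS + LPS arrays moves with this comparison, and its part was not tested.

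Besides the Slco4a1 side and Malat1 regions, the leading rises included an antisense region. A reverse probe in chr10:96082444-96096696, against the strand of Btg1, an antiproliferative gene, read 17.1, 10.71 and 17.6 in NS + LPS and 52.2, 38.5 and 60.2 in HS + LPS. The groups did not overlap, the difference was 1.75 ± 0.22 (adjusted p = 0.000151), and with salt alone it was 1.58 ± 0.22 (adjusted p = 0.000574). Btg1 rose by 1.27 and 1.36.

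The falls with salt under LPS were led by an interferon-inducible gene. In chr7:111530578-111539097, reverse, with Trim30c of an interferon-inducible TRIM cluster, NS + LPS read 45.4, 48.6 and 52.1 and HS + LPS 10.8, 11.6 and 11.3, and the difference was -2.12 ± 0.31 (adjusted p = 0.000398). A region on chr10:118427606-118430070, reverse, went from 31.6, 30.2 and 29.5 to 8.31, 9.67 and 8.05, a difference of -1.82 ± 0.27 (adjusted p = 0.000375). Both of its probes fell there and with salt alone, and both rose with LPS. In chr6:129151512-129208737, reverse, with 2310001H17Rik inside, all 6 probes fell, with a difference of -1.56 ± 0.27 in one of them (adjusted p = 0.000985), and the leukocyte activation gene Cd69, 8960 bases away, fell by 2.83.

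Bounds and uneven arrays marked the rest. A probe on chr4:155560050-155570900, forward, 2633 bases from Isg15 on the other strand, had NS + LPS levels of 47.8, 22.8 and 19.6 against 9.33, 8.60 and 7.75 in HS + LPS, a difference of -1.70 ± 0.45 (adjusted p = 0.011). At chr8:71495043-71525582, reverse, HS + LPS was at least 3.40-fold lower than NS + LPS. Lpl, the lipoprotein lipase gene, whose probe lies 64717 bases away, fell by 1.72. Another fold of at least 3.50 lower stood at chr1:173250734-173259306, forward, where NS + LPS read 29.6, 14.9 and 18.2. At chr10:69844350-69844784, forward, a probe seen only in the salt groups read 16.3, 13.0 and 23.4 in HS and 16.8, 10.9 and 18.9 in HS + LPS and was at least 2.87-fold higher than in NS + LPS.

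**Figure D2:**
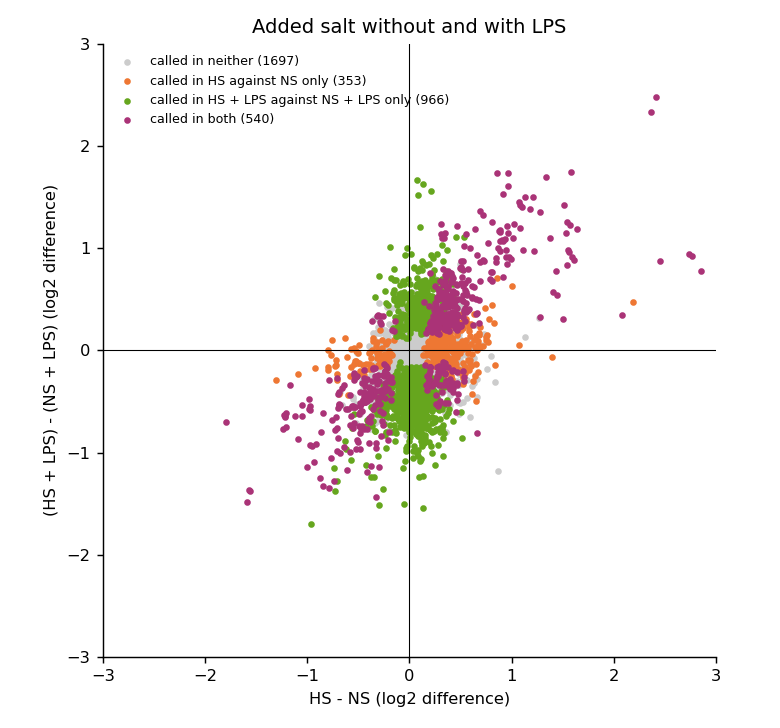
Log2 difference by added salt without LPS (horizontal) and with LPS (vertical) for the 3556 members above background on all 12 arrays, coloured by whether they were called in neither (1697), the first only (353), the second only (966) or both (540). Of the 540, 463 moved in the same direction, and the points farthest to the upper right, above 2 on both axes, are in the Slco4a1 side region.

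The comparisons of salt without and with LPS share no arrays. Across the 3556 members of the plot of both salt effects the correlation was 0.48, and 0.41 across all 5573, as a description over points that share the arrays of each comparison and often a region.

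LPS without added salt raised 878 members (15.8%) and lowered 1178 (21.1%), where 23.8% and 30% of all probes tested did so. At least 2-fold changes were nearly even, 279 higher and 270 lower, 9.85% of members beside 11.4% of all probes, and the median was 0.01. With normexp correction the counts were 1266 higher and 976 lower, against 1103 and 1094 with cyclic loess, so the larger direction turned, while they were 835 and 1308 with quantile normalization and 834 and 1309 in the deposited table. Of the 3556 members above background on all 12 arrays, 659 rose and 865 fell, with 137 and 120 at least 2-fold (7.23%). In the fit of the 22120 probes of any kind with all 12 arrays above background, 5970 rose and 7487 fell. The 3556 members made up 713 and 893 of these.

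Of members above background in both groups, one for each locus, the 5 highest rises lay in 5 regions, 3 of which hold interferon-inducible genes on the same strand. In chr1:85036677-85038530, reverse, adjoining probes read 47.3, 44.5 and 43.9 and 112, 106.9 and 106 in NS, and 1415, 1363 and 1365 and 2984, 2903 and 3121 in NS + LPS. The differences were 4.93 ± 0.05 and 4.79 ± 0.05 (adjusted p = 1.04e-12 and 3.05e-12), and the nearest tested named gene, A530032D15Rik, 46666 bases away on the same strand, rose by 2.86. Salt alone lowered both probes (-0.55 ± 0.05 and -0.62 ± 0.05). On the same chromosome, chr1:85304494-85305390, reverse, went from 154, 171 and 132 to 2274, 2330 and 2477, a difference of 3.96 ± 0.11 (adjusted p = 1.01e-09). All 11 probes of its locus rose, 1 of them, in chr1:85310067-85323941, at least 11.5-fold.

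Coding and pseudogene members of interferon-inducible families made up the other rises. The region of Ifi203-ps, chr1:175705225-175717250, reverse, read 297, 319 and 312 in NS and 5901, 5882 and 5781 in NS + LPS, a difference of 4.24 ± 0.07 (adjusted p = 1.75e-11) shared by all 5 probes. On its forward strand a probe was at least 11.6-fold higher in HS + LPS than in HS. Trim30c rose by 4.64 ± 0.14 in one interval and was at least 15.6-fold higher in another probe. In chr6:57583950-57624216, forward, the probe for Herc6, an interferon-inducible ubiquitin ligase, rose by 4.17 ± 0.05, and the named Herc6 probe by 4.24. Trim30c, Ifi203-ps and Ifi207 have close relatives in the genome, so their probes may also read those, which was not tested.

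Falls with LPS were smaller and, like the rises, often covered a whole region. In chr11:95627874-95640824, forward, with the zinc finger gene Zfp652 inside, NS read 90.7, 103 and 107.3 and NS + LPS 22.2, 19.6 and 20.6, a difference of -2.27 ± 0.09 (adjusted p = 9.47e-09), and 12 of 12 probes of the locus fell. The reverse strand of that interval fell too, in 6 of 7 probes (-1.84 ± 0.21 in the one named). At chr15:36800254-36809571, reverse, NS read 169.5, 186 and 169 and NS + LPS 46.1, 40.5 and 39.2, a difference of -2.06 ± 0.09 (adjusted p = 2.01e-08). All 3 probes fell there, while Ywhaz, whose probe lies 79527 bases away on the same strand, rose by 0.47.

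At chrX:90997595-91009570, reverse, NS read 79.8, 79.8 and 78.7 and NS + LPS 20.4, 18.6 and 20.9. The difference was -2.00 ± 0.06 (adjusted p = 9.15e-10), and 9 of 9 probes of the locus fell. Pdk3, a kinase gene of pyruvate dehydrogenase whose probe lies 657 bases away on the same strand, gave 0.05 (adjusted p = 0.53). At chr6:100162756-100178531, forward, 79 bases from a probe of the oppositely oriented Polycomb-associated gene Rybp, all 4 probes fell. One went from 173, 179.9 and 162 to 41.1, 44.4 and 46.6 (-1.96 ± 0.07, adjusted p = 8.34e-09), and salt under LPS raised it by 1.24 ± 0.07 (adjusted p = 1.5e-06). A member on chromosome 18, in chr18:75518299-75524782, reverse, fell (-1.99 ± 0.12, adjusted p = 3.58e-07).

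LPS with added salt raised 856 members (15.4%) and lowered 2382 (42.7%), beside 25.6% and 42% of all probes tested. At least 2-fold changes came to 273 higher and 713 lower, 17.7% beside 15.9%. The share of lower calls again moved with the scaling, to 1401 higher and 1156 lower with normexp, 1396 and 1335 with cyclic loess, 1060 and 1803 with quantile normalization and 1061 and 1805 in the deposited table, and normexp and cyclic loess moved the median of all probes up by 0.16 and 0.18. Of the 3556 members above background on all 12 arrays, 691 rose and 1439 fell, with 154 and 208 at least 2-fold (10.2%). In the fit of the 22120 probes of any kind with all 12 arrays above background, 6371 rose and 9448 fell. The 3556 members made up 724 and 1491 of these. The rises were led by regions named for LPS without salt. The chrX:148803114-148851243 probe was at least 5.35-fold lower in HS + LPS than in HS, a fitted difference of -2.61 ± 0.50 that became -3.34 without HS replicate 1. Among the falls not yet named was chr2:128211990-128215223, reverse, at 85.0, 70.1 and 62.4 in HS and 19.2, 17.1 and 14.1 in HS + LPS. That is a difference of -2.11 ± 0.13 (adjusted p = 3.58e-07), and all 3 probes fell. Morrbid (Gm14005 on the array), a noncoding gene known to govern the lifespan of myeloid cells, fell by 2.78. Its probe lies 69892 bases away on the same strand.

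**Figure D3:**
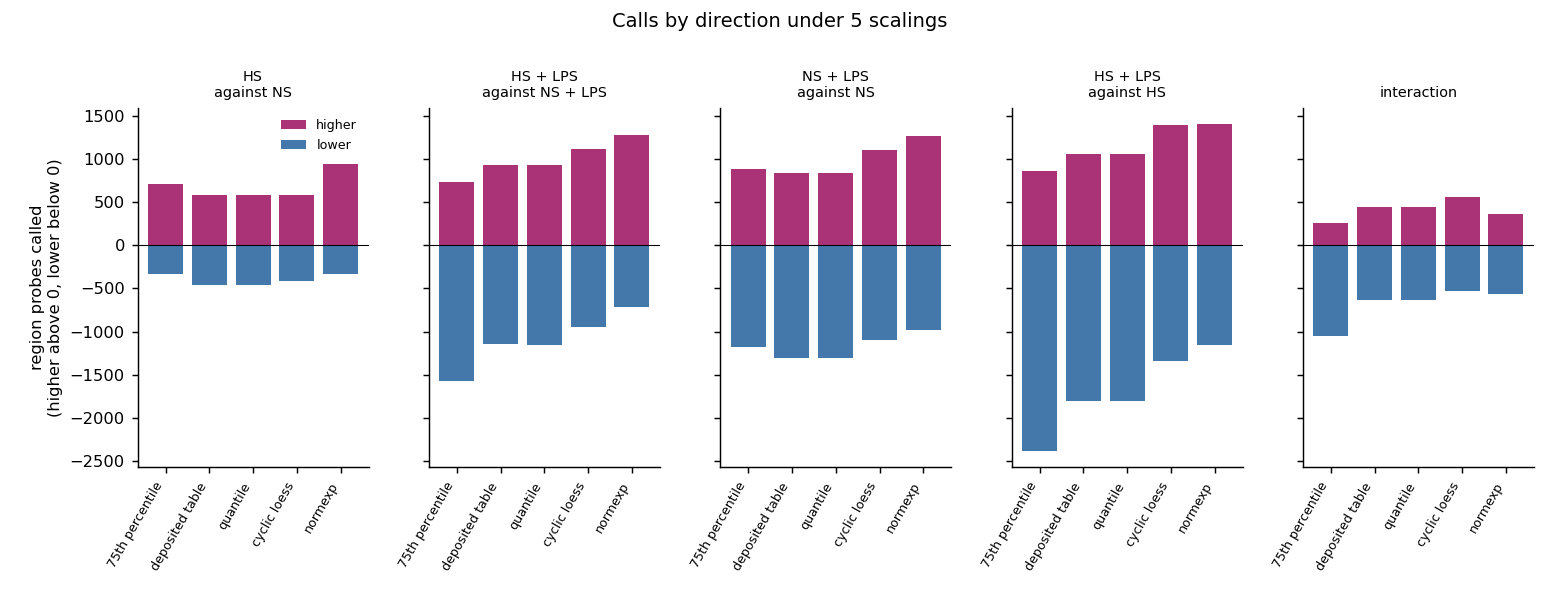
Region probes called higher (above 0) and lower (below 0) in the 5 comparisons under 5 scalings of the same arrays. HS against NS keeps more higher than lower calls under every scaling shown, 712 to 338 at the 75th percentile, while both comparisons of HS + LPS with another group turn under normexp and cyclic loess (1281 to 712 and 1118 to 945 for HS + LPS against NS + LPS).

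The interaction asks whether the effect of salt differed with LPS. It was positive for 261 members (4.68%) and negative for 1050 (18.8%), beside 12.2% and 17.8% of all probes, with 31 and 306 past 2-fold (6.05% beside 4.55%). Among members above background on all 12 arrays the counts were 224 and 687, with 10 and 52 past 2-fold (1.74%). In the fit of the 22120 probes of any kind with all 12 arrays above background, 3301 were positive and 4392 negative. The 3556 members made up 250 and 786 of these. Over all members the counts were 555 and 527 with cyclic loess and 441 and 629 with quantile normalization. They were 438 and 628 by the deposited values and 361 and 567 with normexp, so the excess of negative members turned under cyclic loess.

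The positive members were led by chr4:149445201-149445902, forward, 33817 bases from Gpr157. It read 299.9, 290.5 and 276 in NS and 304, 305 and 305 in HS, then 109, 109 and 97.0 with LPS alone and 349, 321 and 330.3 with LPS and salt. NS + LPS alone was low. LPS lowered it without added salt (-1.46 ± 0.06, adjusted p = 1.29e-08), salt raised it with LPS (1.67 ± 0.06, adjusted p = 1.74e-07), and the interaction was 1.59 ± 0.08 (adjusted p = 6.23e-06). Next came chr16:24122784-24289922, reverse (1.35 ± 0.22), where HS + LPS stood out at 57.4, 49.0 and 69.4 over 13.9 to 21.5 elsewhere and all 3 probes were called. At chr5:121778090-121779622, forward, the interaction was 1.2 ± 0.16, and at chr1:135956616-135957485, reverse, 1.11 ± 0.18, with 2 of 2 probes called.

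The most negative interaction was that of the chr6 locus beside 2210408F21Rik, -2.07 ± 0.33 (adjusted p = 0.00162), called in 9 of 11 probes. In chr7:112934153-112943178, forward, a probe with 81.7% GC read 285, 248 and 261 in NS and 294, 282 and 294 in HS, then 230.0, 216 and 226 with LPS alone and 100, 74.5 and 61.6 with LPS and salt. HS + LPS lay below all other arrays, the interaction was -1.67 ± 0.20 (adjusted p = 0.000384), and neither of the other probes of the region was called. In chr7:144563845-144603732, forward, the value was -1.47 ± 0.27 in 1 of 5 probes. At chr13:53100475-53113850, reverse, the levels were 46.6, 50.5 and 43.6 in NS and 48.3, 42.3 and 44.5 in HS, then 26.6, 29.8 and 30.3 with LPS alone and 10.1, 8.63 and 12.02 with LPS and salt, in falling steps with LPS and then with both. There the interaction was -1.45 ± 0.16 (adjusted p = 0.000278), and 1 of 2 probes was called. Nfil3, a leucine zipper transcription factor gene whose probe lies 37838 bases away on the same strand, rose by 1.49 with LPS.

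A few of the region sets carry the name of a known noncoding RNA in the array design. Under the name NEAT2, another name of Malat1, which sits in nuclear speckles, 3 probes of chr19:5795689-5802671, reverse, rose by 0.87 to 0.89 with salt alone and 1.00 to 1.18 with salt under LPS. Their LPS differences without salt were 0.31 to 0.34, with 1 of 3 called, a call lost with quantile normalization and in the deposited table. The locus of overlapping intervals around it has 18 probes in 6 intervals, among them the 5 NEAT1 probes, and 13 of the 18 rose with salt alone and 16 with salt under LPS. In its interval chr19:5801802-5802597, 6030 bases from the named Malat1 probe, NS read 1471, 1368 and 1310 and HS read 2810, 2413 and 2902, while NS + LPS read 1794, 2008 and 1989 and HS + LPS read 6216, 5403 and 6127. Both pairs were apart on every array, by 0.97 ± 0.09 (adjusted p = 4.24e-05) and 1.61 ± 0.09 (adjusted p = 8.89e-07).

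NEAT1, the scaffold of paraspeckles, lies at the same locus. In chr19:5842306-5845476, reverse, none of its 5 probes was called with salt alone (-0.10 to -0.06), 3 were called higher with salt under LPS and 4 fell with LPS, the largest being -0.40 ± 0.07. Of the 3, 2 lost the call with normexp and with cyclic loess. TUG1 had 5 probes in chr11:3539796-3547536, reverse, and 1 of them fell with salt alone (-0.29 ± 0.07, adjusted p = 0.0129). NRON, a noncoding repressor of NFAT, had 2 probes in chr2:33661335-33669111, forward, with salt differences of 0.10 and 0.14 that were not called while 1 of them fell in both comparisons that use HS + LPS (-0.46 ± 0.14 with salt under LPS, adjusted p = 0.0245). Those calls were lost under the 4 other scalings. HOTAIR in chr15:102774492-102778161, reverse, fell with salt under LPS (-0.58 ± 0.12, adjusted p = 0.00339), a call lost with normexp.

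The KCNQ1ot1 probe in chr7:150399015-150482452 is on the forward strand and the named Kcnq1ot1 probe inside it on the reverse, so the probe lies opposite to the gene of that name. It was called in LPS with added salt (-0.30 ± 0.12, adjusted p = 0.0443), a call lost under the same 4 scalings. BRN1-A, whose interval chr1:42705044-42751670 holds Pantr1, was above background in NS only. XIST, TSIX, H19, PINC and lincP21 had no member.

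Beyond the region probes, a list of 80 named noncoding genes gives the wider family. Of these 57 had a named probe and 39 passed the filter. With salt alone 16 of the 39 rose and 4 fell, where 14.7% of all probes were higher and 13% lower, with a median of 0.16 beside 0.04 over all probes, and the counts were 15 to 16 and 6 under 4 other scalings. The risers included snoRNA host genes, Gas5 (0.28 ± 0.05, adjusted p = 0.0022) and Snhg7 (0.49 ± 0.06, adjusted p = 0.000372), as well as Dancr (0.38 ± 0.04, adjusted p = 0.000171). Not all host genes rose, and Snhg18 was among those that fell (-0.28 ± 0.06, adjusted p = 0.0066). Malat1 rose by 0.91 ± 0.12 (adjusted p = 0.000426) and Mirt1 fell (-0.95 ± 0.09, adjusted p = 4.81e-05). With salt under LPS 11 rose and 15 fell, beside 21.3% and 29.3% of all probes, with a median of -0.04 beside -0.07. Dubr rose most there, by 1.19, and Morrbid fell by 2.18.

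With LPS alone 10 of the 39 rose and 17 fell, beside 23.8% and 30% of all probes (median -0.13 beside -0.03). With LPS under salt 9 rose and 23 fell, beside 25.6% and 42% (median -0.36 beside -0.17). Under 4 other scalings the last pair was 7 to 11 and 18 to 23. Mir22hg, host of miR-22, rose with LPS by 1.96 ± 0.08 (adjusted p = 1.51e-08) and under salt by 2.56. The imprinted transcript Peg13 fell with LPS (-1.15 ± 0.05, adjusted p = 1.34e-08). Gas5 fell with LPS by 0.55 and under salt by 0.99. In the interaction 8 genes were positive and 14 negative, beside 12.2% and 17.8% of all probes, with a median of -0.21 beside -0.08.

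Few regions held probes called in opposite directions. Of the 1388 regions with at least 2 member probes, 265 had 2 or more called with salt alone, and 4 had calls in both directions. These numbers were 518 and 53 for salt with LPS, 509 and 25 for LPS, 769 and 71 for LPS with salt and 245 and 15 for the interaction. Every probe of the region was called lower in 341 regions and higher in 117 for LPS with salt, and lower in 172 and higher in 131 for LPS alone. Of all probes tested 42% were lower and 25.6% higher for LPS with salt, and 30% and 23.8% for LPS alone. Over single members the larger direction turned in both comparisons under normexp and cyclic loess, and the regions were counted under the main scaling only. The regions with 10 probes are tied, and 3 of the 11 are given, picked after their values were seen. None of these 3 had calls in both directions in a comparison, while others of the 11 did. In chr6:116092274-116144199, reverse, 4 probes were higher and 5 lower for LPS with salt. In chr2:158169020-158191295, reverse, 3 were higher and 2 lower for LPS alone. The interval chr17:26911397-26917047, forward, 2110 bases from Crebrf, had all 10 lower with LPS (-1.11 to -0.71), all 10 higher with salt under LPS (0.43 to 0.84) and 1 called with salt alone. In chr5:74487385-74497428, forward, which holds Dancr, 7 rose with salt alone, by up to 0.45, and all 10 fell with LPS under salt, by 0.38 to 1.13. In chr4:129497990-129515290, forward, with 5830469G19Rik inside, 9 of 10 fell with LPS and all 10 with LPS under salt.

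The strands of an interval could be set against each other in 272 intervals with members above background on all 12 arrays on both. Across these the mean differences of the strands correlated at 0.20 with salt alone, 0.18 with salt under LPS, 0.52 with LPS and 0.48 with LPS under salt, and had the same sign in 181, 170, 160 and 180 intervals. These are descriptions across intervals that share arrays. The widest gap was at chr6:31267612-31293337, where 4 forward probes averaged 2.47 with salt and all were called, and the reverse probe above background everywhere gave 0.33 (adjusted p = 0.613). A second reverse probe there, left out because it was not above background in every group, was the one at least 6.81-fold higher with salt. At chr19:53517903-53540753 the reverse strand, with Mirt1, rose by 1.73 with LPS under salt and the forward strand gave -0.30, with 0 of 2 probes called. At chr1:107866276-107887102 all 4 reverse probes, on the strand of Gm7160, rose with LPS to a mean of 1.98, and the forward probe gave 0.19 (adjusted p = 0.179).

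On 2 further intervals the strands also parted. At chr18:90750100-90772025 the reverse strand rose by 2.01 with LPS and the forward strand gave 0.08 (adjusted p = 0.764). At chr3:96074625-96086375 the 5 forward probes, on the strand of the histone gene Hist2h2bb, rose by 1.10 on average with LPS under salt while the reverse probe fell by 0.75 (adjusted p = 0.000791).

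**Figure D4:**
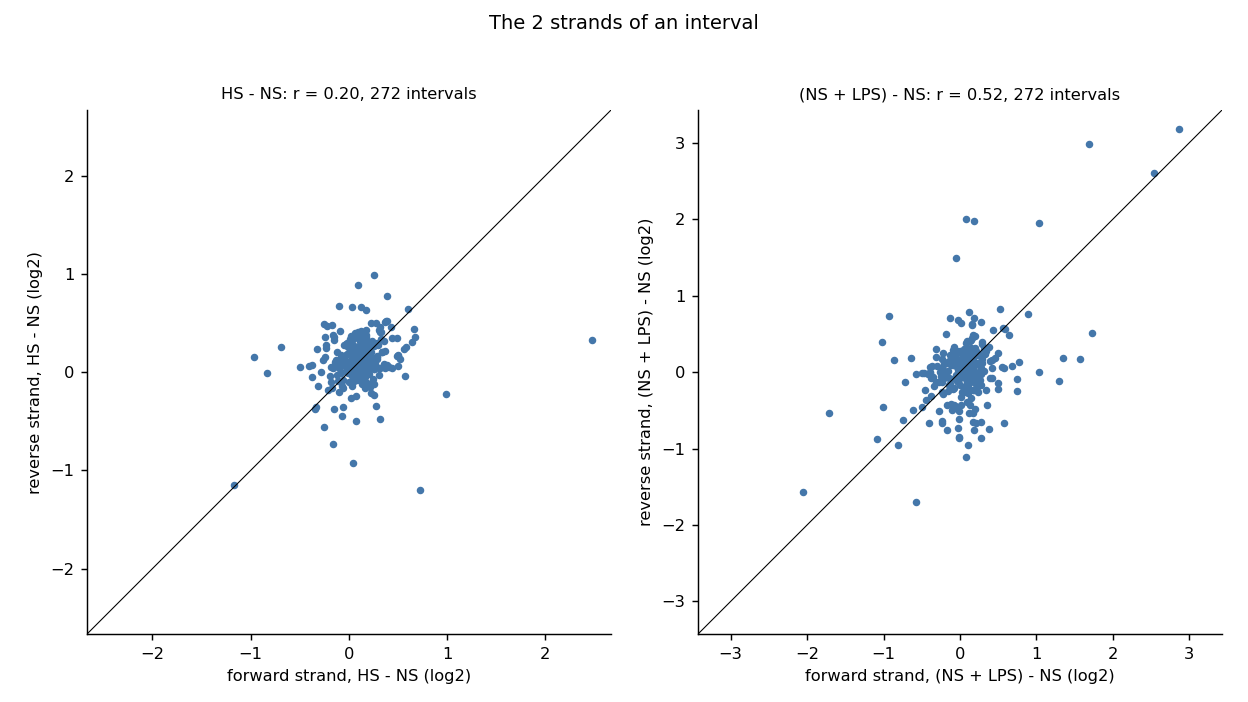
Mean log2 difference of the forward (horizontal) and reverse (vertical) members of 272 intervals, for added salt on the left and LPS on the right; the line marks equal values. The strands correlated at r = 0.20 with salt and 0.52 with LPS, and had the same sign in 181 and 160 of the intervals. A higher r here is not a closer fit to the line, and the point at 2.47 and 0.33 on the left is the chr6 interval.

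For each region the nearest named probe that passed the filter was taken. Regions tracked that probe most closely where it lay inside the region on the same strand. Across 320 such regions the salt difference of the region and of the named probe correlated at 0.67, and at 0.44, 0.34 and 0.14 for 250, 315 and 364 regions whose nearest named probe lay up to 5, 5 to 20 and 20 to 100 kb away. With LPS the values were 0.74, 0.37, 0.26 and 0.33. For named probes on the opposite strand they were 0.32, 0.34, 0.31 and 0.11 with salt and 0.50, -0.04, 0.16 and 0.28 with LPS, over 187, 150, 235 and 356 regions. The points share arrays and, inside an interval, can share the transcript.

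**Figure D5:**
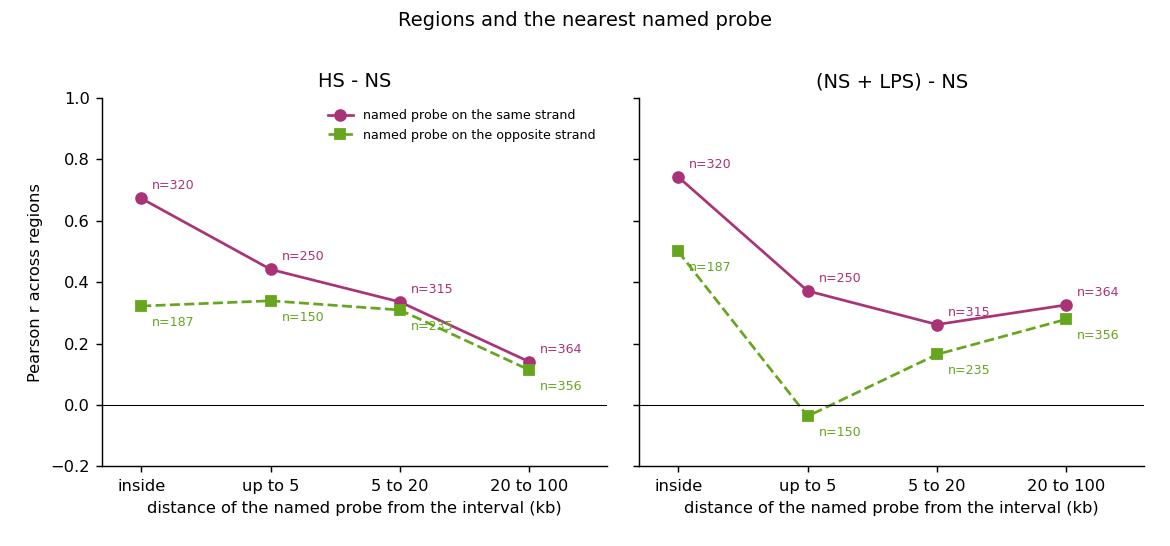
Pearson correlation across regions between the log2 difference of a region and of its nearest named probe that passed the filter. Values are by distance and strand, for added salt (left) and LPS (right), with the number of regions at each point. Same-strand values inside the interval are 0.67 and 0.74, and those at 20 to 100 kb 0.14 and 0.33.

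Members called at least 2-fold changed were counted by what their region holds. With LPS these were 16.7% of 418 members with a protein-coding gene on the same strand, 10.5% of 484 with an lncRNA gene, 32.4% of 37 with a pseudogene, 6.52% of 644 with a named gene on the opposite strand only and 9.70% of 3804 with no named gene, beside 11.4% of all probes tested. With salt alone the shares were 3.59%, 2.89%, 8.11%, 2.02% and 1.76%, beside 2.23% of all probes. The shares were not tested against each other, and the 37 pseudogene members include 5 from the Ifi203-ps region.

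A list of 87 LPS and salt response genes was searched for neighbouring members. Of the 85 with coordinates, 24 had a member within 100 kb of their named probe. The nearest regions to 4 of them, picked after their values were seen, are given. In these 4 every probe of the region was called with LPS, which did not hold for all of the 24. The probe beside Isg15 was called (0.60, with the gene at 5.85). Those beside Hdc (0.23) and Csf1 (0.12) were not, though these genes rose by 5.37 and 3.31. Beside Ptgs2, the inducible prostaglandin synthase, the reverse interval chr1:152001112-152012796, 46309 bases away against the strand of the gene, had a probe at 16.9, 16.9 and 16.9 in NS and 67.6, 70.4 and 61.3 in NS + LPS. It rose with LPS by 1.97 ± 0.17 (adjusted p = 3.65e-06), the second probe of the region rose by 2.05, and Ptgs2 itself rose by 7.09. Beside Ptgs1, the constitutive enzyme, all 3 probes of chr2:36112429-36112792, forward and 4726 bases away on the strand of the gene, were called lower with LPS, as was Ptgs1 (-1.17). In 2 of them no NS + LPS array was well above background, so no size is given. The third, with uneven NS + LPS arrays (5.93, 21.8 and 18.3), gave -1.18, but -0.59 and no call without NS + LPS replicate 1, and the call was also lost without NS replicate 2 or 3. In the adjoining chr2:36112819-36114110 a probe went from 19.1, 18.7 and 21.5 to levels not well above background on any NS + LPS array, at least 3.74-fold lower.

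Regions beside the other 2 genes moved in unlike ways. Beside Nfkbia, the inhibitor of NF-kB, both probes of chr12:56564855-56565310, reverse and 25635 bases away on the same strand, were called higher with LPS, and Nfkbia rose by 0.69. One rose by 0.91, and the other read 20.1, 20.8 and 18.2 in NS + LPS and was not well above background on any NS array. Beside the proto-oncogene Myc, which rose by 4.57 with LPS, the 3 probes of chr15:61870759-61938796, forward and 49283 bases away on the same strand, fell by 0.58 to 1.11. With normexp the smallest of these falls was -0.24 and not called (adjusted p = 0.137), a call also lost without any 1 of the 6 arrays, and the largest was -0.37. With salt under LPS the same 3 rose by 0.46 to 1.13.

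The 5 probes of highest mean signal, which does not rank transcripts, included one in chr17:17481706-17482457, reverse, which holds a probe named Oaz1, and one of the Malat1 locus. The others lay in chr17:48068261-48087905, forward, chr11:22681800-22707775, reverse, and chr7:108209996-108216032, reverse, and no named probe lies inside these.

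The probes matched the RefSeq promoter windows (GRCm38.p6, 250 bases before to 50 after each gene start) in few places. Of the 5573 members, 79 had their whole sequence in the windows of 66 genes among 32851 windows, 33 in the direction of the gene only, 42 against it only and 4 in both. Such a probe was the one at chr1:173250734-173259306, at least 3.50-fold lower in HS + LPS than in NS + LPS, which begins 181 bases before the start of Dedd in the direction of the gene. The named Dedd probe gave -0.07 in that comparison (adjusted p = 0.51). The probe beside Isg15 matched the window of the noncoding gene Gm46878, 194 and 127 bases before its starts.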

How the data were processed

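RNA from 12 samples of RAW264.7 cells was hybridised to one-colour Agilent arrays of design 028005, 3 in each of 4 groups. Per the file headers, Feature Extraction 10.7.3.1 made the intensity values, already background-subtracted, and gave the flags for signal well above background and the probe coordinates on mm9. A deposited value table also holds intensity values. Its equal medians point to quantile normalization, a step not given in the sources used here.

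Here the deposited intensity of each array was divided by its 75th percentile over 59305 non-control spots and taken to log2. Spots with outlier flags were left out, and a probe was tested if 1 group or more had all 3 arrays well above background. The 27004 probes that passed were fitted together in limma 3.58.1 (R 4.3.3) with all 12 arrays and moderated variances, and p-values were adjusted by Benjamini-Hochberg over all of them, with calls at an adjusted p under 0.05. Differences are log2 with the standard error of the fit. A group not well above background on any array gets a fold of at least its bound, taken from the dimmest signal well above background on each array. A locus joins overlapping intervals of one strand. This grouping, used to name 1 member a locus, was added after the files were seen.

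Members and gene lists were chosen with earlier results of these data known. Named by rule were, for each comparison, the 5 largest rises and falls among called members measured in both groups whose arrays do not overlap, the 2 largest bounds in each direction, 4 interactions of each sign, the 5 highest mean levels, the 5 intervals whose strands differ most, 3 of the regions with most probes, members beside listed response genes, and members with a noncoding RNA's name. Not every one is given in the text. The number of arrays limits the precision. Alternatives were normexp background correction (offset 50), quantile and cyclic loess normalization, the deposited table, other filters, an intensity trend, only the groups compared, the slide or the replicate number as a block, and leaving out each array. Tables and figures were made with Python 3.11.15, pandas 2.3.3 and matplotlib 3.10.9. The fitting was tested on simulated data.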

Additional observations from a re-analysis of the deposited data

Results flagged for a closer look

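The effect of added salt differed with LPS, by the interaction term in limma, at each of these regions, the 4 named of each sign. The interaction was 1.59 at chr4:149445201-149445902 forward, where the salt difference was called with LPS and not without it, 1.35 at chr16:24122784-24289922 reverse, 1.2 at chr5:121778090-121779622 forward and 1.11 at chr1:135956616-135957485 reverse. It was -2.07 at chr6:31267612-31293337 forward, where the rise with salt was smaller with LPS. The value was -1.67 at chr7:112934153-112943178 forward, -1.47 at chr7:144563845-144603732 forward and -1.45 at chr13:53100475-53113850 reverse, the first and last of which were low in HS + LPS. Since HS + LPS lies on a slide and scan day of its own, each of these cannot be told apart from that slide and day.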

How the results depend on the processing

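Counts of called members stayed within 1.5 times of 1050, 2306, 2056, 3238 and 1311 (salt, salt with LPS, LPS, LPS with salt, interaction) under every alternative except the interaction without a filter on dim probes, which called 871. Without that filter 16249 region probes were tested, and 3556 with all 12 arrays above background, not 5573. Similar counts need not be the same members. Of the calls in the main fit, normexp kept 949, 1313, 1829, 1973 and 723, in that order of comparisons. Cyclic loess kept 896, 1669, 1924, 2191 and 787. Leaving out 1 array gave counts of 753 to 961, 1861 to 2097, 1767 to 1982, 2855 to 3134 and 978 to 1255. The replicate number did not pair the arrays (r of -0.21 to 0.13 for equal numbers, -0.13 to 0.21 for others), and the replicate block gave 958, 2204, 2015, 3194 and 1180. The slide as a fixed block gave 1066 for salt and 1984 for LPS, and could not be fitted for HS + LPS. These equal the counts from the shared slide alone, since the block only takes out NS + LPS replicate 3. Without a filter the median of all probes moved by 0.12 with salt, 0.21 with LPS and 0.15 with LPS under salt, and cyclic loess moved that of the interaction by 0.11.

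Of 122 named differences that were called, 92 kept call and direction in every setting run, 30 lost the call in at least 1, and 51 were smaller by over 1.5 times with normexp. 4 of them changed sign with normexp. These include 3 of BRN1-A (0.091 with salt under LPS, 0.199 and 0.259 for LPS with salt), whose probes were above background in NS only, so that no measured level stands behind these values or behind another that was not called (0.271 with salt under LPS). The other was a Myc side probe for LPS with salt (0.017, and 0.011 with cyclic loess). The second chr9 probe beside D430036J16Rik went from -3.72 for LPS with salt to -3.02 without HS + LPS replicate 1. The offset of 50 in normexp by itself makes folds of dim signals smaller, and other causes were not tested. Dim probes near background set what can be measured.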
